A study of Mus musculus with 21 samples.

Results

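Bone morphogenetic protein (BMP) ligands and the genes that restrain BMP signalling were followed in mouse embryoid bodies that expressed TWIST1 alone or joined to a partner. The 10 genes were taken by symbol from the 48321 symbols in each count table: the ligand genes Bmp2, Bmp4, Bmp5 and Bmp7, the secreted antagonists Nog and Grem1, the intracellular SMAD genes Smad6, Smad7 and Smad9, and the decoy receptor Bambi. BMPs are secreted dimers that bind pairs of type I and type II receptor kinases, which phosphorylate SMAD1, SMAD5 and SMAD9 so that these join SMAD4 and act on transcription in the nucleus. Signalling switches on several of its own inhibitors, among them Smad6, Smad7 and Bambi, and also the Id genes, whose levels are widely used as a readout of the pathway. In the early mouse embryo BMP4 from extraembryonic tissue is needed for mesoderm to form, and BMP2 is made by the visceral endoderm.

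The study measured messenger RNA of A2loxCre embryonic stem cells, labelled strain C57BL/6, after 3 days of differentiation as embryoid bodies, with 3 samples in each of 7 groups. The parental A2loxCre line carried no construct and received doxycycline. The other 5 lines carry Twist1 behind a doxycycline-inducible promoter. The insert is a monomer in 1 line and a homodimer in another, and in the remaining 3 Twist1 is paired with Tcf12, Tcf3 or Tcf4, genes of E-proteins, which are the basic helix-loop-helix partners of TWIST1. All received doxycycline 16 h before collection, apart from 1 further group of the monomer line that was left without it. Each construct is represented by 1 line, so line and construct cannot be told apart, and the parental and uninduced monomer groups differ in both construct and doxycycline. The labels do not say that the 3 samples of a group are separate cultures, so p-values measure the spread between these samples, which may be technical.

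Library totals lay between 6648842 and 15999693 counts. Levels are given as CPM, the count scaled to the size of its library. Twist1 had a mean level of 8.10 CPM in parental cells. Monomer cells had 5.06 CPM before and 612 CPM after induction, homodimer cells 182 CPM, and cells with an E-protein construct 39.4 to 55.1 CPM. Tcf4 was at 329.9 CPM in its own line against 47.5 in the parental line. Tcf3 was not raised in the libraries labelled TCF3 dimer (154 against 167 CPM). Tcf12 was at 53.1, 118 and 108 CPM under the label TCF12 dimer, with a mean of 92.9 CPM. Its mean was 104 CPM under the label TCF3 dimer and 90.3 CPM in the TCF4 line, against 66.0 CPM in the parental line. The groups labelled TCF3 dimer and TCF12 dimer are therefore called TCF3-labelled and TCF12-labelled, and every direction given for them rests on the label. Lines or samples called "with an E-protein" are those whose label names an E-protein construct. RNA of Tcf3, Tcf4 and Tcf12 was present in every group. Sample 1 of the TCF12-labelled group stood apart. Its deviation from the mean of the other samples of its group correlated with gene length at a Spearman rho of -0.575. Samples 2 and 3 of that group, each set against a mean that includes sample 1, had 0.497 and 0.540. The other groups' 18 samples had -0.26 to 0.281. Sample 1 of the uninduced monomer group also stood apart. It had the fewest counts and detected genes, and the chi-square of its counts against its replicates was 35.5 and 39.7 per degree of freedom, where the 17 pairs without it or TCF12-labelled sample 1 had 1.42 to 3.80. Results on either group are given without these samples where that changes a call. The TCF12-labelled files keep 25 symbols that the files of the other 18 samples show as calendar dates, so a difference in the authors' handling cannot be told apart from this group. The cultures are mixed, and in such bulk samples fewer cells of a type and less RNA per cell cannot be told apart.

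Per kilobase of exon, Smad7 was the most abundant of the 10 genes in the parental line at 16.4 CPM per kb, followed by Bambi at 2.77 and Bmp4 at 1.99. Grem1 at 1.10, Bmp7 at 0.885, Smad6 at 0.685 and Bmp2 at 0.557 CPM per kb formed a lower tier, and Nog (0.127), Bmp5 (0.0617) and Smad9 (0.0587) were close to undetected. In the TCF3-labelled libraries this order was different: Bmp7 stood at 9.91 CPM per kb, next to Smad7 at 9.74 and Bmp4 at 8.25. Bmp5 and Nog were too low to be tested, so 8 of the 10 genes have a test.

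**Figure D1:**
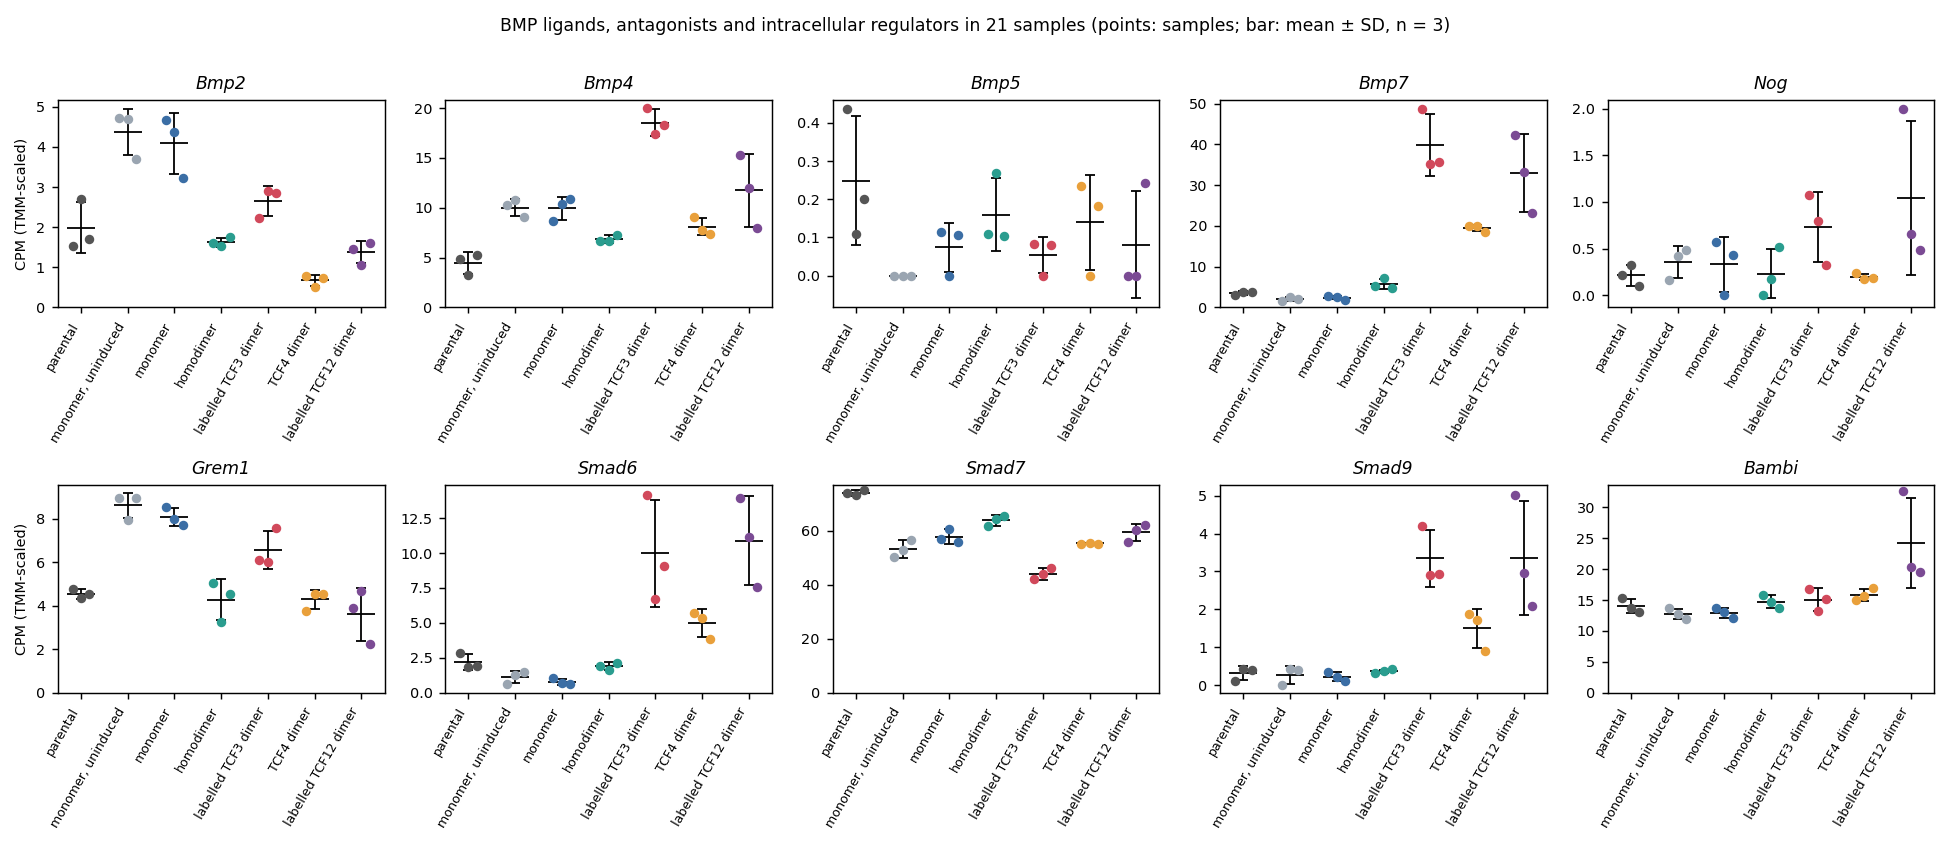
Level of each of the 10 genes in CPM (y axes, linear, each gene on its own scale) in the 7 groups; points are the 3 samples of a group and the bars show the mean ± SD. Bmp7, Smad6 and Smad9 are highest in the 3 lines with an E-protein, Bmp2 and Grem1 in the 2 groups of the monomer line, and Smad7 in the parental line, where its samples lie between 73.2 and 75.3 CPM.

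The counts of genes that passed are given for all 8 tested genes first (edgeR quasi-likelihood test, Benjamini-Hochberg adjusted p under 0.05 over 14311 genes). Against the parental line, 4 genes rose and 1 fell in the TCF3-labelled samples, where 28.3% of all tested genes passed, 16.3% upwards and 12.0% downwards. In the TCF4 dimer line 4 rose and 2 fell, against a background of 12.9% (7.18% upwards and 5.67% downwards). In the TCF12-labelled samples 5 rose and 1 fell, against 27.0% (15.5% and 11.5%). In the homodimer line only Smad7 passed, downwards, against 8.84% (4.81% and 4.02%). In the induced monomer line 3 rose and 2 fell, against 20.0% (10.8% and 9.22%). In the uninduced monomer line 3 rose and 1 fell, against 19.9% (10.5% and 9.43%). These comparisons use the same 3 parental samples and are not independent of each other. The median log2 difference of the 8 genes against the parental line was 1.29 in the TCF3-labelled, 0.51 in the TCF4 and 1.08 in the TCF12-labelled samples, and -0.02 in the homodimer line. The median of all tested genes was within 0.03 of 0 in each of these 4 comparisons.

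**Figure D2:**
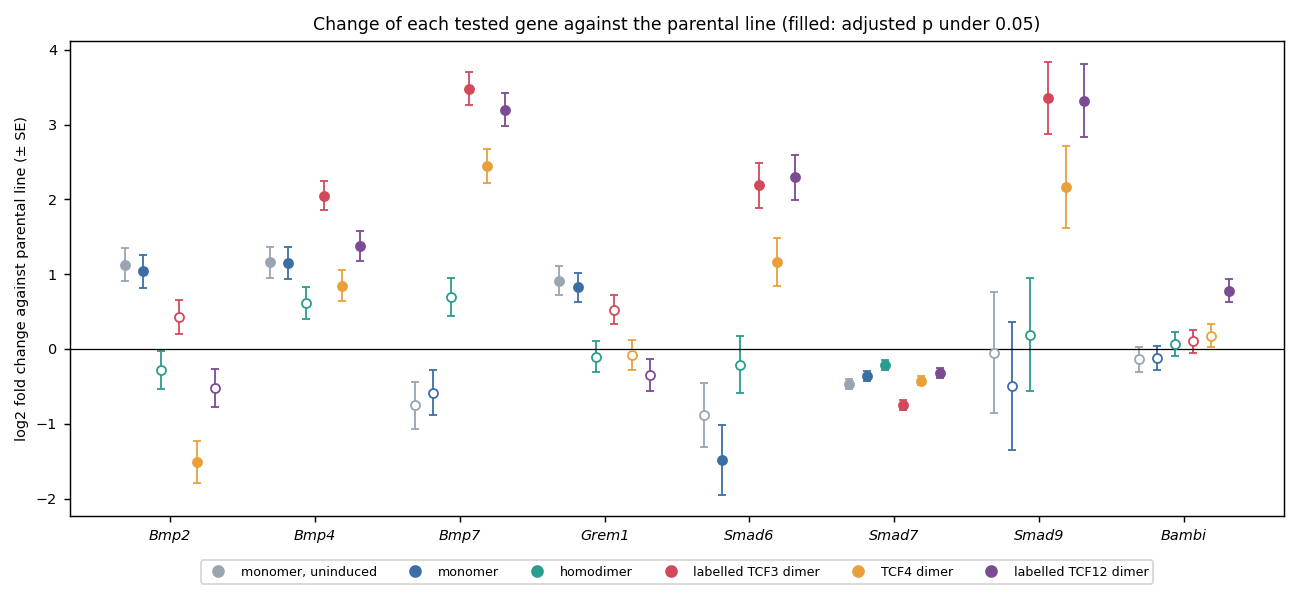
Log2 fold change ± SE of the 8 tested genes (x axis) in each of 6 groups against the parental line (y axis); filled points passed at an adjusted p under 0.05, open points did not. The 3 lines with an E-protein lie above 1 for Bmp7, Smad6 and Smad9, while both monomer groups and the homodimer line lie below 1 for these genes.

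The start sites of Bmp4, Smad6 and Smad9 are shown because these 3 of the genes that rose in the lines with an E-protein have a window in the RefSeq promoter table (GRCm38.p6). That table holds 5 of the 10 genes: Bmp4, Bmp5, Smad6, Smad9 and Grem1. Each sequence is the 250 bases before the start, on the strand of the gene, with E-boxes (CANNTG, the hexamer bound by basic helix-loop-helix dimers, searched on both strands) in capitals.
Bmp4 (chr14:46390670-46390919, minus strand): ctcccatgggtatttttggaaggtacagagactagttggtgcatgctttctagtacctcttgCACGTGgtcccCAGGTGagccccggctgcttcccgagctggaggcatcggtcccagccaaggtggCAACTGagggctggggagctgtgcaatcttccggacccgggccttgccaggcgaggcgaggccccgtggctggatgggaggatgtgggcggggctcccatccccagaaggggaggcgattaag
Smad6 (chr9:64022060-64022309, minus strand): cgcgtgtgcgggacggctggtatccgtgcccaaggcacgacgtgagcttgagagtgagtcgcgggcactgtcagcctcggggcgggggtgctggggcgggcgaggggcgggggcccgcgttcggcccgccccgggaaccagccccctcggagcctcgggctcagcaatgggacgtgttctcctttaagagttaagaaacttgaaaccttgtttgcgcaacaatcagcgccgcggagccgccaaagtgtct
Smad9 (chr3:54755332-54755581, plus strand): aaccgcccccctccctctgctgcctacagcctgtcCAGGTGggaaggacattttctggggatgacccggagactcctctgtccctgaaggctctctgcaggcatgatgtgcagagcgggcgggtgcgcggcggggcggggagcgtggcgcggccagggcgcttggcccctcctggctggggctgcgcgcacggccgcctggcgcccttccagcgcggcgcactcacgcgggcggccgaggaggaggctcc
The Bmp4 window holds 3 E-boxes, starting 188, 177 and 123 bases before the start, and the Smad9 window holds 1, starting 215 bases before it. The Smad6 window and that of Grem1, whose level did not rise in these lines by the test, hold none of these letters. Of all 32851 such windows 66.2% hold at least 1 E-box, and a match in letters is a description and not a binding site. The GC-rich SMAD motif GGCGCC occurs once in the Smad9 window and once in the Grem1 window, and in 9.6% of all windows. The short SMAD box GTCT or its complement AGAC occurs in 82.9% of all windows and in each of these 4.

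Among the ligand genes, Bmp7 had the widest spread between groups. BMP7 signals mainly through SMAD1, SMAD5 and SMAD9 and is known for its part in kidney and eye development. Bmp7 (chr2:172868012-172940321, minus strand, GRCm38) was at 3.05, 3.90 and 3.73 CPM in the parental samples and at 5.28, 7.17 and 4.73 CPM in the homodimer samples. It reached 48.5, 35.3 and 35.7 CPM in the TCF3-labelled, 19.9, 19.9 and 18.5 in the TCF4 and 42.3, 33.3 and 23.2 in the TCF12-labelled samples. All 9 samples with an E-protein lay above all 12 others, and the TCF4 samples lay below the other 2 of these lines. The log2 difference (± SE) from the parental line was 3.48 ± 0.22 in the TCF3-labelled samples (edgeR adjusted p = 9.01e-10). It was 2.44 ± 0.22 in the TCF4 samples (edgeR adjusted p = 3.12e-07) and 3.20 ± 0.22 in the TCF12-labelled samples (edgeR adjusted p = 4.46e-09).

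The homodimer samples lay just above the parental samples in Bmp7, with a log2 difference of 0.69 ± 0.26 that did not pass (edgeR adjusted p = 0.11). That difference passed when sample 1 of the TCF12-labelled group was left out of the fit (0.70) and when the spread was taken from the 2 groups alone (0.70). The monomer line had the lowest Bmp7, at 2.73, 2.47 and 1.93 CPM when induced and 1.62, 2.51 and 2.05 CPM when not induced. Both of its groups lay below the parental samples without overlap, and neither difference passed.

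Bmp4 was higher in every construct line than in the parental line, but not by the same pattern as Bmp7. Bmp4 (chr14:46383520-46390669, minus strand) was at 4.90, 3.25 and 5.24 CPM in the parental samples and at 20.0, 17.4 and 18.3 CPM in the TCF3-labelled samples, the highest of all groups. The TCF12-labelled samples were spread widely at 15.3, 12.0 and 7.98 CPM and the TCF4 samples stood at 9.03, 7.77 and 7.41 CPM. The monomer line reached 10.2, 10.8 and 9.07 CPM without doxycycline and 8.64, 10.3 and 10.8 CPM with it, which is as high as the TCF4 group. The lowest construct line was the homodimer line at 6.68, 6.63 and 7.30 CPM, still above every parental sample. Its log2 difference of 0.62 ± 0.22 did not pass (edgeR adjusted p = 0.089), but did without TCF12-labelled sample 1 (0.62).

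The rise of Bmp4 over the parental line passed in 5 of the 6 groups. It was 2.05 ± 0.20 in the TCF3-labelled (edgeR adjusted p = 2.03e-07), 1.38 ± 0.20 in the TCF12-labelled and 0.85 ± 0.21 in the TCF4 samples on the log2 scale. It was 1.16 ± 0.21 in the uninduced monomer line (edgeR adjusted p = 5.35e-04). That group differs from the parental line in both construct and doxycycline. Without its sample 1, which stood apart, this was 1.14 and still passed. Set against that uninduced line in place of the parental one, the TCF3-labelled samples were still higher by 0.89 on the log2 scale and passed. The TCF12-labelled difference shrank to 0.22 and the TCF4 difference turned to -0.31, and neither passed. With sample 1 left out of that control the 3 values were 0.90, 0.23 and -0.30, with the same calls. The TCF4 call against the parental line was also lost without parental sample 2 (0.66). Of the exon bases of Bmp4, 4.0% overlap Gm15217 on the other strand, and the strand setting of the counting is not given in the sources used here.

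Bmp2, a ligand made by visceral endoderm and later by heart-forming tissue, was highest in the monomer line and lowest in the TCF4 line. It was at 4.71, 4.70 and 3.71 CPM in the uninduced and 4.66, 4.38 and 3.22 CPM in the induced monomer samples, against 1.52, 2.71 and 1.71 CPM in the parental samples. The TCF4 samples had 0.785, 0.513 and 0.729 CPM, from 10, 6 and 12 counts. The 2 monomer groups overlapped each other and no other group, and the TCF4 samples lay below all other samples. Relative to the parental line the log2 difference was 1.13 ± 0.22 in the uninduced monomer line (edgeR adjusted p = 0.0011) and 1.04 ± 0.22 in the induced one (edgeR adjusted p = 0.0021). In the TCF4 line it was -1.52 ± 0.28 (edgeR adjusted p = 8.84e-04). The TCF3-labelled samples, at 2.23, 2.91 and 2.84 CPM, overlapped the parental samples and lay below the monomer line.

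Markers of primitive and visceral endoderm were also highest in the monomer line. The summed level of 15 such markers (among them Sox17, Gata4, Gata6, Foxa2, Afp and Ttr) was 1002 to 1007 CPM in the parental samples and 3372 to 4066 CPM over both groups of the monomer line. It was 2129 to 2630 CPM in the TCF3-labelled samples and 651 to 765 CPM over the homodimer, TCF4 and TCF12-labelled samples. Against the parental line, 11 of 14 tested markers rose and none fell in either monomer group (background 10.8% and 10.5% upwards), and 12 of 14 fell in the TCF4 line (background 5.67% downwards), where Bmp2 fell too. In 3 groups the markers changed while Bmp2 did not pass. Of the 14 markers, 11 rose and 2 fell in the TCF3-labelled samples (background 16.3% and 12.0%), 8 fell in the homodimer (4.02%) and 10 fell in the TCF12-labelled samples (11.5%). None of the 15 markers was at 0 in all samples of a group. The part of endoderm cells in the level of Bmp2 was not tested. Bmp5, the ligand gene mutated in short-ear mice, had at most 4 counts in any library and none in the 3 uninduced monomer libraries, where a count of 0 allows up to 0.293 to 0.487 CPM. Of its exon bases 46.7% overlap Gm26903 on the other strand.

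**Figure D3:**
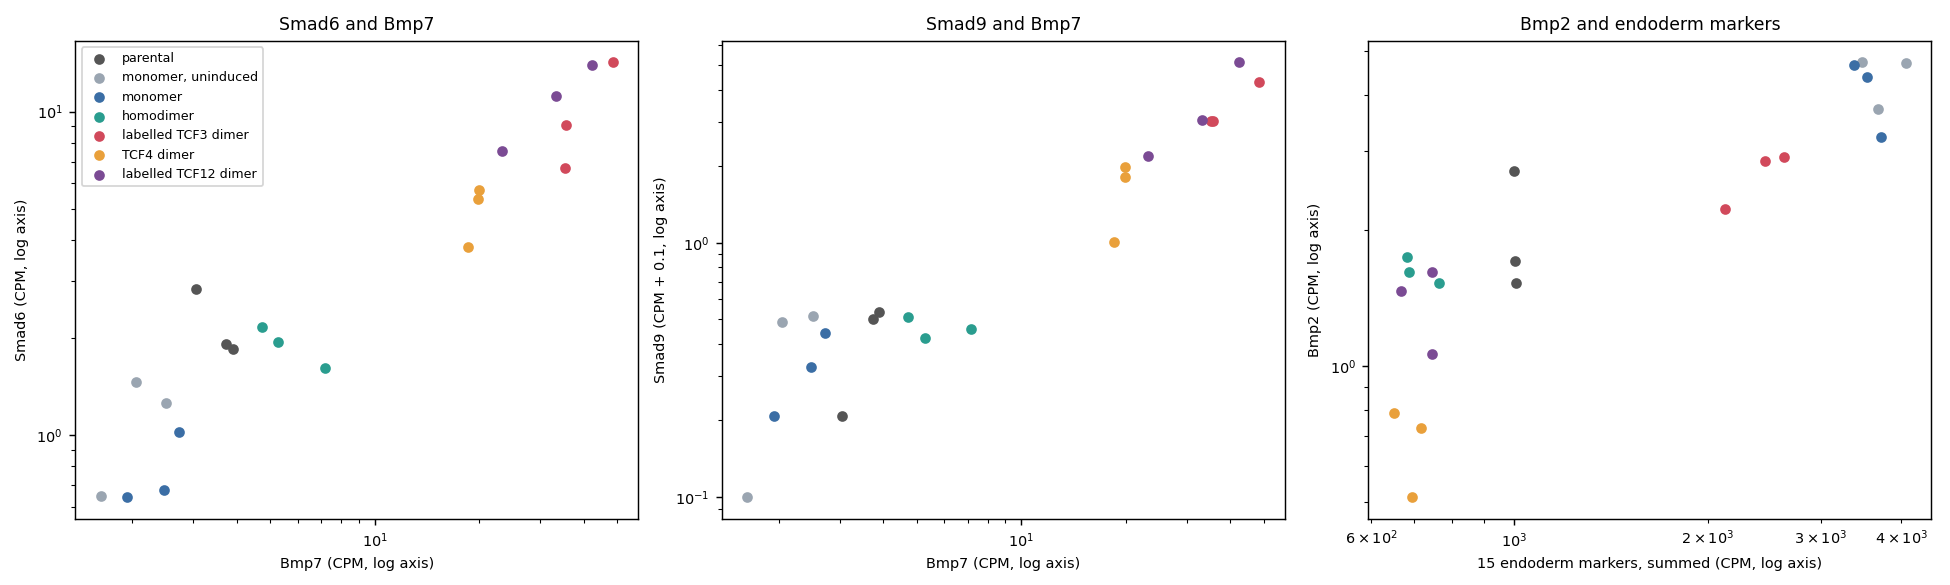
Each point is 1 sample, on log axes. Left and middle, Smad6 and Smad9 against Bmp7 in CPM (Smad9 with 0.1 CPM added); the 9 samples with an E-protein lie at 18.5 to 48.5 CPM of Bmp7 and above all others in Smad6 and Smad9. Right, Bmp2 against the sum of 15 endoderm markers; both groups of the monomer line lie at the upper right, at 3372 to 4066 CPM of the markers.

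Of the secreted antagonists, Grem1 followed the monomer line as Bmp2 did. GREM1 binds BMP2, BMP4 and BMP7 and keeps them from their receptors. It was at 8.94, 7.93 and 8.97 CPM in the uninduced and 8.52, 7.98 and 7.73 CPM in the induced monomer samples, against 4.79, 4.33 and 4.53 CPM in the parental samples. The monomer groups did not overlap any other group. Grem1 exceeded the parental line by 0.92 ± 0.20 on the log2 scale in the uninduced line (edgeR adjusted p = 0.0023) and by 0.83 ± 0.20 in the induced one (edgeR adjusted p = 0.0049). The TCF3-labelled samples were next at 6.11, 5.99 and 7.55 CPM, above all parental samples. Their difference of 0.53 ± 0.20 just missed the threshold (edgeR adjusted p = 0.052) and passed without TCF12-labelled sample 1 (0.52). The homodimer and TCF4 groups overlapped the parental samples. Nog, which encodes the BMP antagonist noggin, had at most 19 counts in a library. Its highest values were 1.99, 0.656 and 0.484 CPM in the TCF12-labelled and 1.07, 0.793 and 0.325 CPM in the TCF3-labelled samples, against 0.218, 0.325 and 0.101 CPM in the parental samples, and it was not tested.

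Smad6, an inhibitory SMAD that acts chiefly on BMP receptors, had the same set of high groups as Bmp7. Smad6 (chr9:63953076-64022059, minus strand) was at 2.83, 1.84 and 1.91 CPM in the parental and 1.94, 1.61 and 2.16 CPM in the homodimer samples. It was at 14.2, 6.70 and 9.10 CPM in the TCF3-labelled, 5.73, 5.38 and 3.83 in the TCF4 and 13.9, 11.1 and 7.58 in the TCF12-labelled samples. Again all 9 samples with an E-protein lay above the other 12, and the TCF4 group lay below the other 2 of these lines. The TCF3-labelled samples differed among themselves by more than a factor of 2. Its log2 difference from the parental line was 2.19 ± 0.30 (edgeR adjusted p = 1.79e-05) in the TCF3-labelled and 2.30 ± 0.30 (edgeR adjusted p = 1.45e-05) in the TCF12-labelled samples.

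In the TCF4 line the rise of Smad6 was smaller, at 1.17 ± 0.32 (edgeR adjusted p = 0.020). That call was lost without parental sample 2 (1.06) or 3 (1.08), and without TCF4 sample 1 (1.04) or 2 (1.10). In the induced monomer line Smad6 went the other way, at 1.02, 0.674 and 0.644 CPM from 9, 6 and 6 counts, below every parental sample. The difference was -1.48 ± 0.47 (edgeR adjusted p = 0.030) and was lost without parental sample 1 (-1.26) and without monomer sample 2 (-1.40) or 3 (-1.37). The uninduced samples of that line, at 0.650, 1.25 and 1.46 CPM, also lay below the parental samples.

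Smad9 encodes the third BMP-regulated SMAD, also called SMAD8, which carries BMP signals less strongly than SMAD1 and SMAD5. It was at the edge of detection in 4 groups and clearly detected in 3. The parental samples had 1, 4 and 4 counts, or 0.109, 0.433 and 0.403 CPM, and the homodimer samples 3, 4 and 4 counts. The TCF3-labelled samples had 51, 33 and 36 counts (4.21, 2.91 and 2.92 CPM), the TCF12-labelled samples 48, 36 and 26 (5.03, 2.95 and 2.10 CPM) and the TCF4 samples 24, 20 and 15 (1.89, 1.71 and 0.911 CPM). Every sample with an E-protein was above every other sample. Because the parental total was only 9 counts, the ratio of summed CPM is given with its 95% counting interval, which covers counting error only. It was 10.6 (5.38 to 23.7) in the TCF3-labelled, 10.1 (5.15 to 22.8) in the TCF12-labelled and 4.54 (2.24 to 10.4) in the TCF4 samples. The test across genes gave edgeR adjusted p = 2.81e-05, 4.91e-05 and 0.011 in that order, and the TCF4 call was lost without parental sample 1 (log2 difference 1.78).

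Smad7, the other inhibitory SMAD gene, fell in all 6 groups against the parental line, including the 3 in which Smad6 rose. SMAD7 blocks TGF-beta and activin signals as well as BMP signals. Smad7 was at 73.8, 73.2 and 75.3 CPM in the parental samples, above all 18 other samples. Its lowest group was TCF3-labelled at 42.0, 43.8 and 46.3 CPM, followed by the uninduced monomer line at 50.2, 52.9 and 56.7 and the TCF4 line at 55.2, 55.5 and 55.2 CPM. It fell by 0.75 on the log2 scale from the parental line in the TCF3-labelled samples (edgeR adjusted p = 7.74e-08). It fell by 0.47 in the uninduced monomer line, by 0.42 in the TCF4 line, by 0.36 in the induced monomer line and by 0.32 in the TCF12-labelled samples. The uninduced monomer group, below the parental level here, differs from the parental line in both construct and doxycycline. The homodimer difference of -0.22 ± 0.07 only just passed (edgeR adjusted p = 0.048), and was lost when any 1 parental or homodimer sample was left out, with values of -0.24 to -0.19, and without uninduced monomer sample 1 (-0.22). Against the uninduced monomer line the homodimer samples were higher in Smad7 by 0.26, which passed, also without sample 1 of that control (0.22). The TCF4 and TCF12-labelled differences turned to 0.05 and 0.16 against that line and did not pass, so in these 3 groups the direction depends on the control. The TCF3-labelled samples stayed lower, at -0.28, and passed. The TCF12-labelled call was also lost when the spread was taken from the 2 groups alone.

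Bambi encodes a receptor-like protein without a kinase that dampens BMP and TGF-beta signals. It was level across 6 groups, whose samples all lay between 12.0 and 16.9 CPM. The TCF12-labelled samples had 32.6, 20.4 and 19.6 CPM, above all 18 others. Against the parental line the log2 difference was 0.78 ± 0.15 (edgeR adjusted p = 0.0010). Sample 1 was the highest by a wide margin, and without it the difference was 0.51 and still passed. The call was lost when the spread was taken from the 2 groups alone.

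The same sample 1 was also the highest of its group for Bmp7, Bmp4, Smad6 and Smad9. Without it the TCF12-labelled differences against the parental line were 2.98 for Bmp7, 2.09 for Smad6, 2.94 for Smad9 and 1.15 for Bmp4. All 4 still passed.

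Doxycycline within the monomer line, the only comparison inside 1 line, raised Twist1 from 5.06 to 612 CPM but left the 8 tested genes without a call. By edgeR 0 of 8 passed, against 2.00% of all tested genes (1.52% upwards and 0.475% downwards), 0 of 8 had an unadjusted p under 0.05, and DESeq2 called 0 of 8 as well. The log2 differences ran from -0.60 for Smad6 to 0.17 for Bmp7, and the samples overlapped for each gene. At these counts the SE was 0.07 to 0.20 for Smad7, Bambi, Grem1, Bmp4 and Bmp2, and 0.34 to 0.88 for Bmp7, Smad6 and Smad9, so changes of the size seen for Smad6 were not detectable.

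Joining TWIST1 to a second protein was compared with the induced monomer. Here Bmp7 was higher in each dimer, by 1.28 ± 0.28 in the homodimer, 4.06 ± 0.24 in the TCF3-labelled, 3.03 ± 0.24 in the TCF4 and 3.78 ± 0.24 in the TCF12-labelled samples. The largest of the 4 edgeR adjusted p-values was 0.0026. In the uninduced monomer samples Bmp7 was about as low (mean 2.06 CPM) as in the induced ones (2.38 CPM). Bmp2 was as high in the uninduced monomer samples (mean 4.37 CPM) as in the induced ones (4.09 CPM). It was lower in each dimer than in the induced monomer, by -0.62 to -2.56 on the log2 scale, with the smallest change in the TCF3-labelled samples (edgeR adjusted p = 0.037). That smallest change was lost by DESeq2, with library size alone, with no filter, and without monomer sample 1 (-0.51) or 2 (-0.57) or TCF3-labelled sample 1 (-0.49) or 3 (-0.65).

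Smad6 and Smad9 were higher than in the monomer in the 3 lines with an E-protein, by 2.65 to 3.78 for Smad6 and 2.66 to 3.85 for Smad9. Their means were 1.12 and 0.269 CPM in the uninduced monomer samples, and 0.780 and 0.224 CPM in the induced ones. In the homodimer line Smad6 was 1.27 ± 0.48 above the monomer, without overlap, but missed the threshold (edgeR adjusted p = 0.073). That difference passed without TCF12-labelled sample 1 (1.28), with DESeq2 and with the replicate number as a block (1.29). Grem1 was lower than in the monomer in the homodimer, TCF4 and TCF12-labelled samples, by -0.91 to -1.17, and not by the test in the TCF3-labelled samples. Its mean was as high in the uninduced monomer samples (8.62 CPM) as in the induced ones (8.08 CPM). Of the 8 genes, 1 rose and 2 fell from monomer to homodimer, against a background of 18.5% (9.15% upwards and 9.31% downwards). In the TCF3-labelled samples 4 rose and 2 fell, against 22.1% (12.7% and 9.36%). In the TCF4 line 3 rose and 2 fell, against 27.4% (14.5% and 13.0%), and in the TCF12-labelled samples 4 rose and 2 fell, against 33.5% (18.1% and 15.5%).

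The lines with an E-protein were then set against the homodimer, which holds TWIST1 alone in a pair. Bmp7, Smad9, Smad6 and Bmp4 were higher with an E-protein and Smad7 was lower, so 5 of 8 genes passed against 14.0% of all genes (7.99% upwards and 6.04% downwards). The mean of the 3 lines exceeded the homodimer by 2.35 ± 0.18 for Bmp7 (edgeR adjusted p = 4.64e-08), 2.75 ± 0.43 for Smad9 (edgeR adjusted p = 1.50e-04) and 2.09 ± 0.28 for Smad6 (edgeR adjusted p = 2.86e-05). For these 3 genes no sample of the 9 overlapped the 3 homodimer samples. Bmp4 differed by 0.81 ± 0.16 (edgeR adjusted p = 0.0016), also without overlap, and Smad7 by -0.28 ± 0.05 with overlap. Twist1 itself was at 182 CPM in the homodimer line and lower, at 39.4 to 55.1 CPM, in the 3 lines with an E-protein. The part of construct level in these differences was not tested.

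The 3 lines with an E-protein also differed among themselves in all 8 tested genes, against 26.0% of all tested genes. Bmp7, Smad6 and Smad9 were lowest in the TCF4 line without overlap (edgeR adjusted p of the test among the 3 lines = 8.90e-04, 0.0061 and 0.020). Bmp2 was also lowest there, by the same test (7.69e-05), while Bmp4 was highest in the TCF3-labelled samples (1.99e-04). The TCF3-labelled and TCF12-labelled samples overlapped in Bmp7, Smad6 and Smad9. The tests for Smad6 and Smad9 did not pass without TCF4 sample 3, at edgeR adjusted p = 0.053 and 0.13. Over all alternatives run the adjusted p ranged from 7.83e-05 to 0.11 for Smad6 and from 0.0022 to 0.15 for Smad9. With the spread taken from the 3 groups alone 4 genes passed, and Smad6, Smad9, Bambi and Grem1 did not. All genes passing then went from 3722 to 922.

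The remaining genes of the pathway were taken from 6 lists by role, with up to 4 genes named per list by their range over the 7 groups. Of the other BMP-family ligands, 5 of 13 were tested. Bmp6 was at 2.18, 1.30 and 1.41 CPM in the parental and 6.25, 4.72 and 5.04 CPM in the induced monomer samples. It was higher there by 1.71 ± 0.25 (edgeR adjusted p = 4.72e-05), and by 1.19 ± 0.25 in the TCF3-labelled samples. Against the uninduced monomer line the TCF3-labelled difference was -0.32 and did not pass. Between the induced and uninduced monomer samples 0 of the 5 tested ligands passed (background 2.00%). Gdf6, a ligand of joint and skull development, was lower in the homodimer line by -1.79 ± 0.47 (edgeR adjusted p = 0.018), a call lost without parental sample 1 (-1.74) or 3 (-1.74) and without homodimer sample 1 (-1.85) or 2 (-1.55). In the TCF4 and TCF12-labelled comparisons with the parental line no ligand of the list passed. Bmp8a and Bmp8b did not pass against the parental line in any of the 4 dimer lines.

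Of the receptors and co-receptors 10 of 11 were tested. Against the parental line 2 passed in the homodimer (background 8.84%), 3 in the TCF3-labelled (28.3%), 2 in the TCF4 (12.9%) and 3 in the TCF12-labelled samples (27.0%). The count was 1 in the homodimer without parental sample 1 or 2 or homodimer sample 3, where 919 to 947 of all genes passed. It was 1 in the TCF4 line without parental sample 1 or 3 or TCF4 sample 2 or 3, where 1310 to 1364 passed. It was 5 in the TCF3-labelled samples without TCF12-labelled sample 1, where 6700 of all genes passed. In the TCF12-labelled samples it was 1 without parental sample 2 and 5 without their own sample 3, where 2590 and 6165 passed. With all samples 1265, 1839, 4057 and 3864 of all genes passed in the homodimer, TCF4, TCF3-labelled and TCF12-labelled comparisons. Rgmb, a BMP co-receptor, rose in all 4 dimer lines by 0.46 to 0.73 and fell in both monomer groups, by -0.46 ± 0.14 when induced. The homodimer call was lost without parental sample 1 or 2 or homodimer sample 3 (0.46 to 0.51), and the TCF12-labelled call without parental sample 1 or 2 or TCF12-labelled sample 2 (0.37 to 0.42) and when the spread was taken from the 2 groups alone. The induced monomer call was lost without parental sample 3 or monomer sample 1 or 3 (-0.49 to -0.33). Rgma, its relative, was lower in the homodimer by -0.81 ± 0.19 and higher in the TCF4 line by 0.58 ± 0.16, a call lost without parental sample 1 or 3 or TCF4 sample 2 or 3 (0.45 to 0.58). Bmpr1b, a type I receptor, was lower in the TCF3-labelled samples by -1.33 ± 0.28 and in the induced monomer line by -1.21 ± 0.29. Against the uninduced monomer line the TCF3-labelled difference in Bmpr1b was -0.17 and the homodimer difference in Rgma was -0.21, and neither passed. Between the induced and uninduced monomer samples 0 of the 10 tested receptors and co-receptors passed (background 2.00%). Eng, a co-receptor of endothelial cells, was higher in the TCF3-labelled samples by 0.95 ± 0.08 (edgeR adjusted p = 7.54e-08).

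Among the 3 signal transducers, Smad5 changed far more than Smad1 and Smad4. Smad5, which passes BMP signals to the nucleus, was at 46.7, 48.1 and 51.0 CPM in the parental and 36.4, 45.1 and 46.3 CPM in the uninduced monomer samples. It was at 103, 94.6 and 104 CPM in the induced monomer and 103, 96.0 and 103 CPM in the homodimer samples. With an E-protein it reached 326, 244 and 269 CPM in the TCF3-labelled, 207, 199.6 and 163 in the TCF4 and 212, 281 and 241 in the TCF12-labelled samples. The levels form 3 steps without overlap: no induced construct, TWIST1 alone or paired with itself, and TWIST1 with an E-protein. Against the parental line Smad5 rose by 1.05 ± 0.12 and 1.05 ± 0.12 in the monomer and homodimer lines, and by 1.97 ± 0.12 to 2.52 ± 0.13 with an E-protein. Within the monomer line doxycycline raised it by 1.23 ± 0.13 (edgeR adjusted p = 5.72e-06). Smad1 fell by 0.33 in the TCF3-labelled samples and did not pass in the other 3 dimer lines. That call was lost with no filter, and against the uninduced monomer line the difference was 0.47.

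Of the other secreted antagonists and modulators 12 of 16 were tested. Fst, which encodes the activin and BMP antagonist follistatin, was at 87.2, 111 and 104 CPM in the parental samples and at most 12.8 CPM in any other sample. It was lower than in the parental line by -3.09 in the uninduced monomer line and by -4.30 in the induced one, and doxycycline lowered it within that line by -1.21 ± 0.20 (edgeR adjusted p = 0.0012). Cer1, an antagonist of NODAL, BMP and WNT made by anterior endoderm, was also lower in all 6 groups than in the parental line, by -1.88 to -4.19. With the uninduced monomer line as the control, Fst did not pass in the TCF4 and TCF12-labelled samples, nor Cer1 in the homodimer and TCF3-labelled samples. With sample 1 left out of that control, further calls were lost. These were Fst in the homodimer (-0.58) and TCF3-labelled samples (-0.52) and Cer1 in the TCF4 line (-1.30). Nbl1, which encodes the BMP antagonist DAN, rose in all 4 dimer lines. It was at 2.50, 1.62 and 2.22 CPM in the parental and 11.7, 12.6 and 12.6 CPM in the homodimer samples, and at 34.7, 18.4 and 14.3 CPM in the TCF12-labelled samples, with log2 differences of 2.54 to 3.39. Bmper, an extracellular BMP modulator, was higher by 1.79 to 2.05 in both monomer groups and the TCF3-labelled samples, the 3 groups with the most endoderm marker RNA. The low Fst and Cer1 went with a low sum of 9 primitive streak and nascent mesoderm markers, which was 226 to 267 CPM in the parental samples and at most 50.9 CPM in every other sample. The part of such cells in these levels was not tested.

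All 10 other intracellular regulators were tested. Of these, 1 passed against the parental line in the homodimer (background 8.84%), 2 in the TCF3-labelled (28.3%), 1 in the TCF4 (12.9%) and 3 in the TCF12-labelled samples (27.0%). Without TCF12-labelled sample 1 the TCF3-labelled and TCF4 counts were 6 and 4. All genes passing there went from 4057 to 6700 and from 1839 to 4046. Without sample 3 of the TCF12-labelled group its own count was 6, where 6165 of all genes passed in place of 3864. The TCF3-labelled count was 1 without parental sample 3 or TCF3-labelled sample 1 or 3, where 3099 to 3286 of all genes passed. Of the calls with all samples, the largest change was -0.38 for Tob1, which encodes an inhibitor of BMP-SMAD transcription, in the TCF12-labelled samples, a call lost when the spread was taken from the 2 groups alone. Ctdsp1, Skil and Pmepa1 did not pass against the parental line in any dimer line.

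Among known target genes of BMP and SMAD signalling, more rose than fell in each line with an E-protein. Of 14 tested targets of 16 listed, 9 rose and 1 fell against the parental line in the TCF3-labelled samples, where 16.3% of all tested genes rose and 12.0% fell. In the TCF4 line 6 rose and 3 fell (background 7.18% and 5.67%), and in the TCF12-labelled samples 9 rose and 2 fell (15.5% and 11.5%). In the homodimer line 4 rose and 4 fell (4.81% and 4.02%), and in the induced monomer line 3 rose and 1 fell (10.8% and 9.22%). The median log2 difference of the 14 was 1.32, 0.91 and 1.89 in the 3 lines with an E-protein, -0.49 in the homodimer line and -0.16 in the induced monomer line. Against the homodimer 12 of 14 were higher with an E-protein (background 7.99%) and none passed downwards, with a median of 1.48 where the median of all tested genes was 0.01.

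Id1, an inhibitor of basic helix-loop-helix proteins and the best known BMP target, was at 32.7, 31.2 and 30.5 CPM in the parental and 94.5, 107 and 97.9 CPM in the homodimer samples. It stood at 401, 270.2 and 307 CPM in the TCF3-labelled, 270.2, 240.4 and 215 in the TCF4 and 1059, 425 and 311 in the TCF12-labelled samples, the first of which was again sample 1. All 9 samples with an E-protein lay above the homodimer samples, and these above the induced monomer samples. Id1 was raised by doxycycline within the monomer line by 1.28 ± 0.30 (edgeR adjusted p = 0.031), as was Id2 by 0.97 ± 0.19 (edgeR adjusted p = 0.0079). The Id1 call was lost when any 1 of the 6 samples compared was left out (1.23 to 1.34), and the Id2 call without uninduced sample 3 (0.88). Id3 rose by 2.65 ± 0.30, 1.89 ± 0.29 and 3.19 ± 0.31 in the TCF3-labelled, TCF4 and TCF12-labelled samples. Hand1, a gene of extraembryonic and lateral plate mesoderm, was at most 0.487 CPM in the 12 samples not labelled with an E-protein construct. It was at 2.19 to 16.8 CPM in the 9 labelled with one. The Id genes and Hand1 also respond to other signals, and no value here measures SMAD phosphorylation.

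**Figure D4:**
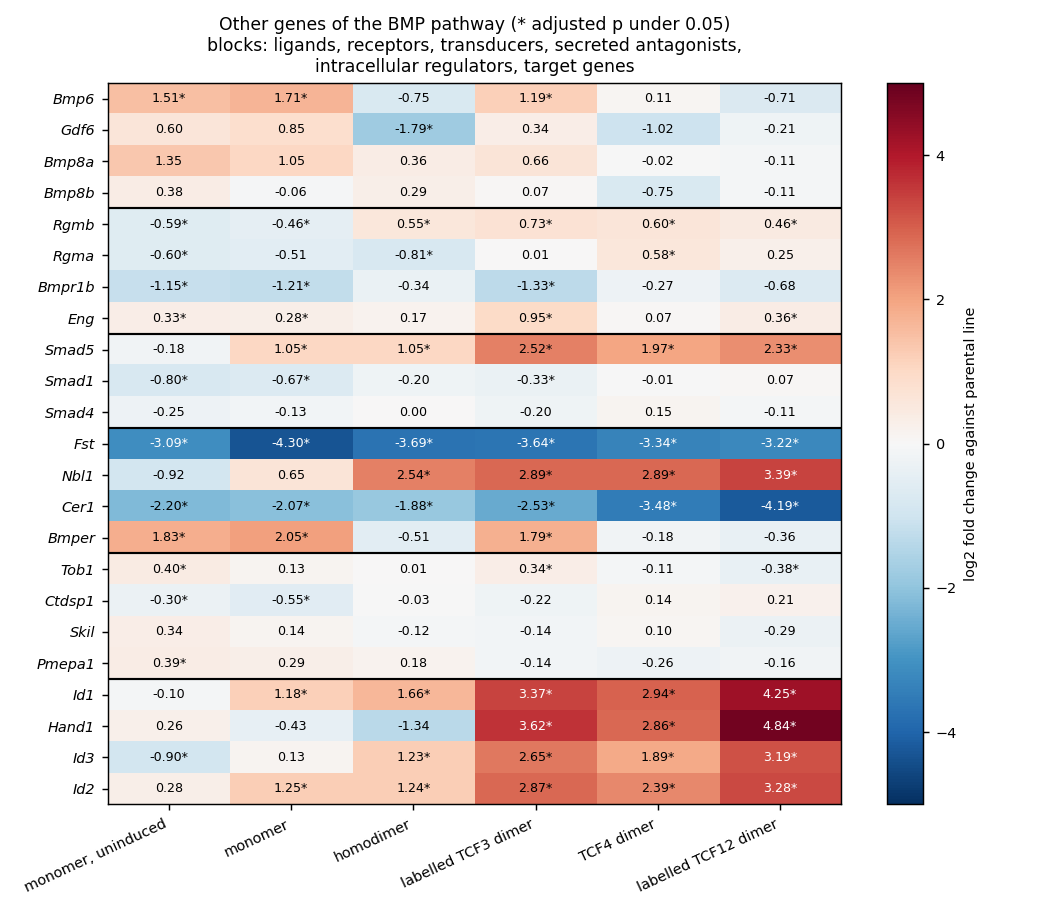
Log2 fold change against the parental line (colour scale and printed value) of the named genes of the 6 lists, from ligands at the top to target genes at the bottom, in 6 groups from left to right; an asterisk marks an adjusted p under 0.05. Smad5, Nbl1, Id1, Id2, Id3 and Hand1 are most strongly raised in the 3 lines with an E-protein on the right, with Smad5, Nbl1 and the Id genes also raised in the homodimer line. Fst is low in all 6 groups, at -3.09 to -4.30.

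The genes that rose with an E-protein moved with markers of lateral plate and extraembryonic mesoderm. The summed level of 9 such markers, which include Bmp4 itself and Hand1, was 17.4 to 21.01 CPM in the parental and 19.8 to 21.3 CPM in the homodimer samples. It was 53.3 to 69.4 CPM in the TCF3-labelled, 28.9 to 34.9 CPM in the TCF4 and 50.1 to 76.2 CPM in the TCF12-labelled samples. Of the 9 markers, 7, 4 and 8 rose in these 3 lines in turn, with none lower, against 16.3%, 7.18% and 15.5% of all tested genes. Bmp4 is among those that rose in each line, and Hand1, Gata2 and Tbx20 are also in the list of target genes. The sums and counts are therefore not independent of the genes they are set beside. The summed level of 8 pluripotency genes, among them Pou5f1 and Nanog, also differed in these lines. It was 1632 to 1671 CPM in the parental samples, 1179 to 1359 CPM in the TCF3-labelled and 1259 to 1299 CPM in the TCF4 samples. In the TCF12-labelled samples it was 1689 CPM in sample 1 and 1234 and 1189 CPM in the other 2. Of the 8 genes, 3 rose and 3 fell in the TCF3-labelled, 6 fell in the TCF4, and 1 rose and 6 fell in the TCF12-labelled samples, against 16.3% and 12.0%, 5.67%, and 15.5% and 11.5% of all tested genes. The part of either kind of cell in the levels of Bmp7, Smad6 and Smad9 was not tested.

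Across the 21 samples Bmp7, Smad6 and Smad9 had the most alike patterns of the 8 tested genes, with a Pearson r of log2 values of 0.956 for Bmp7 with Smad6, 0.959 for Bmp7 with Smad9 and 0.953 for Smad6 with Smad9. These values describe 7 groups of 3 samples that share their lines and normalisation. Bmp2 and Grem1 had an r of 0.753, and Bmp4 and Smad7 one of -0.880. Of all tested genes, those most like Bmp7 were Cdc42ep4, Bhlhe22 and Col5a1, at 0.980 to 0.983. Those most like Smad6 were Cplx2, Zic1 and Abcd2, and those most like Smad9 were Adcy5, Serpinf1 and Meox2, at 0.964 to 0.971 over both. For Bmp2 the closest were Soat2, Ccbl2 and Srxn1, for Grem1 Lgals9, Spp1 and Slco2a1, and for Bmp4 Nudt4, Capn2 and Xbp1. For Smad7 they were Pak1, Nefm and Zcchc12, and for Bambi Arhgef25, Bex2 and Lrrc14.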

How the data were processed

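Messenger RNA libraries of 21 samples were counted per gene symbol by the authors. The submitters' processing notes name FastQC, TopHat2 and HTSeq and the builds mm10 and GRCm38; versions and the strand setting are not given in the sources used here. The deposited values are raw counts, 1 table per sample, with totals of 6648842 to 15999693 and a floor of 3 counts at 0.182 to 0.487 CPM. A group of 25 symbols had become calendar dates in the files of 18 samples, so files were joined by position.

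Here, all 21 samples entered 1 edgeR 4.0.16 fit (limma 3.58.1, R 4.3.3) with 1 mean per group, TMM factors and the filterByExpr filter (a count of 10, a total of 15), which kept 14311 genes. Comparisons used the quasi-likelihood F-test with Benjamini-Hochberg adjustment over these genes, and an adjusted p under 0.05 passed. The test was checked on simulated counts. CPM values use TMM-scaled totals and are samples or means, and log2 differences are given ± SE from the F statistic. Levels per kilobase use the exon union of GENCODE M21. Alternatives were DESeq2 1.42.0, RLE factors, library size alone, no filter, at least 1 CPM in 3 samples, only the groups compared, the replicate number as a block, each sample left out in turn, and the uninduced monomer line as control, to which that line without its sample 1, and the alternatives for pathway genes, were added after seeing the data.

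The 10 genes and all gene lists were chosen with earlier results of these data known. From each pathway list up to 4 genes are named, those with the largest range of mean log2(CPM + 0.5) over the 7 groups among tested genes reaching 1 CPM in a group. For each tested gene, the 3 genes with the highest correlation are named. The marker lists for neural ectoderm, trophoblast and surface ectoderm held 3, 5 and 2 tested genes. Against the parental line, 1, 1 and 1 of these fell and 0, 1 and 0 rose in the TCF3-labelled samples (background 12.0% downwards and 16.3% upwards). In the TCF4 samples 0, 2 and 0 fell and 0, 1 and 0 rose (5.67% and 7.18%). In the TCF12-labelled samples 1, 2 and 1 fell and 2, 2 and 1 rose (11.5% and 15.5%).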

Additional observations from a re-analysis of the deposited data

Results flagged for a closer look

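For Smad6 and Bmp2 the samples of the induced monomer line moved one way against the parental line and those of a line with an E-protein moved the other way, all samples of each group included. For Smad6 the induced monomer samples lay below all parental samples, and those of the 3 lines with an E-protein above them. The uninduced monomer samples, at 0.650, 1.25 and 1.46 CPM, lay below all parental samples too. The induced monomer call came from 9, 6 and 6 counts. That call and the TCF4 call were each lost in some fits with 1 sample left out. The log2 difference between the TCF3-labelled samples and the monomer was 3.67, between the TCF4 line and the monomer 2.65, and between the TCF12-labelled samples and the monomer 3.78. For Bmp2 the monomer samples lay above and the TCF4 samples below the parental samples, with a log2 difference of -2.56 between the TCF4 line and the monomer. These pairs were picked because both groups passed in opposite directions against the same parental samples, so a difference between them was fixed by that choice and the 4 values are a description. Bmp2 was as high in the uninduced monomer samples, with a mean of 4.37 CPM, as in the induced ones, with 4.09 CPM.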

How the results depend on the processing

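The number of the 10 genes that passed stayed within 1.5 times its value in most comparisons and alternatives, with 3 exceptions. Against the parental line 1 gene passed in the homodimer. It was 0 with library size alone and 0 with no filter, 3 with only the groups compared and 4 with the uninduced monomer line as control, and 0 to 3 with 1 sample left out. All genes passing were 1265, and in these settings in turn 1146, 1144, 3113, 3259 and 919 to 2948. Between homodimer and monomer the 3 genes became 5 with only the groups compared and 3 to 6 with 1 sample left out, the 6 without TCF12-labelled sample 1. All genes passing there went from 2642 to 4813 with only the groups compared and to 2002 to 4803 with 1 sample left out. Among the lines with an E-protein the 8 genes became 4 with only the groups compared, while all genes passing went from 3722 to 922. The cause was not tested.

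With the uninduced monomer line as control, the sign turned for Bmp4 (-0.54), Smad6 (0.67) and Smad7 (0.26) in the homodimer, for Bmp2 (-0.70) and Grem1 (-0.39) in the TCF3-labelled, for Bmp4 (-0.31) and Smad7 (0.0516) in the TCF4 and for Smad7 (0.16) in the TCF12-labelled samples. Of the other pathway genes named, it turned for Cer1 (0.32) in the homodimer and for Bmp6 (-0.32), Bmper (-0.0390) and Smad1 (0.47) in the TCF3-labelled samples. Without sample 1 of that control, chosen after seeing the data, it was again 4 genes that passed in the homodimer, where 2592 of all genes passed. The values were -0.53, 0.47 and 0.22 for Bmp4, Smad6 and Smad7, -0.14 for Smad9 and 0.30 for Cer1 there. They were -0.66, -0.37, -0.38 and 0.50 for Bmp2, Grem1, Bmp6 and Smad1 in the TCF3-labelled, -0.30 and 0.0129 for Bmp4 and Smad7 in the TCF4 and 0.12 for Smad7 in the TCF12-labelled samples. With library size alone it turned for Bmp4 between induced and uninduced monomer (0.0195). Other reversals arose when 1 sample was left out, in differences that did not pass. For homodimer against parental the values then ran from -0.432 to 0.00407 for Bmp2, from -0.316 to 0.0120 for Smad6, from -0.189 to 0.463 for Smad9 and from -0.242 to 0.0784 for Grem1. For induced against uninduced monomer they ran from -0.208 to 0.0561 for Bmp2, from -0.0829 to 0.0803 for Bmp4 and from -0.0311 to 0.0625 for Bambi. For uninduced monomer against parental Smad9 gave -0.435 to 0.335, and for the E-protein lines against the homodimer Grem1 gave -0.0493 to 0.269.

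The replicate numbers did not pair the samples: deviations from group means correlated at a mean of 0.0214 over 63 same-numbered pairs, ranging from -0.222 to 0.344, and at -0.0102 over 126 others. With the replicate block 1, 5, 6 and 6 genes passed against the parental line in the homodimer, TCF3-labelled, TCF4 and TCF12-labelled samples, as without it, and 4 in place of 3 between homodimer and monomer. All genes passing with the block were 1262, 4092, 1828 and 3853 against the parental line, and 2621 between homodimer and monomer.

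Counts over all genes rest on the shared spread. The biological coefficient of variation was 0.120 and fell to 0.0539 without TCF12-labelled sample 1. It was 0.120 without uninduced monomer sample 1, where 179 genes differed between the monomer groups. Without TCF12-labelled sample 1, all genes passing against the parental line went from 1265 to 2948 in the homodimer and from 4057 to 6700 in the TCF3-labelled samples. In the TCF4 samples they went from 1839 to 4046. With only the groups compared they went to 3113, 6674 and 4010 in the homodimer, TCF3-labelled and TCF4 samples. In the TCF12-labelled samples 3864 became 824 with only the groups compared. In the monomer line 2861 became 5106 when induced and 2854 became 5029 when not, and between these groups 286 became 682. Depth limits Bmp5, Nog and Smad9, which had at most 4 counts in the parental libraries.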
